A study of Homo sapiens with 30 samples.

Results

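The long arm of chromosome 11 held 867 of the 20098 protein-coding genes whose promoters were examined, and this is a gene-by-gene account of RNA polymerase II (Pol II) and active histone marks at those 867 promoters. A promoter was the window of 1000 bp at each side of every start site of a basic GENCODE transcript in GRCh37, and a gene belonged to the arm when its start sites lay on chromosome 11 beyond position 54694205, the end of the longest gap in the sequence at the centromere. Windows of 165 of the 867 genes held a start site of another protein-coding gene, so such neighbours can share 1 peak and are not separate measurements. The arm was chosen by the knockout contrast of Pol II, H3K4me3 and H3K9Ac in these same libraries. The changes along it are therefore a description and carry no test.

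The study asked how SAP30, a subunit of the SIN3 complex, acts at promoters of MDA-MB-231 cells, an established human triple-negative breast cancer line. ChIP-seq, the sequencing of DNA pulled down with an antibody, mapped SAP30, SIN3A and SIN3B in the parental line. Pol II, H3K4me3 and H3K9Ac were mapped both there and in SAP30-KO1, a line whose SAP30 gene was knocked out with CRISPR/Cas9. Per the study's methods the SAP30-KO1 line was a mixture of several single-cell clones of 1 knockout. Each of these groups had 2 replicate libraries, and nothing in the sources used here says whether the replicates were separate cultures. No second knockout line was profiled by ChIP-seq in the lists analysed here, so an effect of losing SAP30 and a property of this line cannot be told apart.

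Pol II is the enzyme that transcribes protein-coding genes, and it gathers at the start sites of active ones. H3K4me3 is a methyl mark laid down around active start sites by the KMT2 (MLL) and SETD1 enzymes, and H3K9Ac is an acetyl mark of active promoters and enhancers. SAP30 belongs to the SIN3 complex, in which the scaffold proteins SIN3A and SIN3B carry histone deacetylases, and which is best known as a corepressor although it is also found at active promoters.

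Each library was available as its own list of peak summits, single bases marking where each peak called by the authors was highest, with a score, the −log10 of the q-value. The 18 lists held 10859 to 54621 summits. A score depends on sequencing depth, which is unknown here, so each summit was given a percent rank within its own list, from 0 for the best score to 100 for the lowest. A gene took the rank of its best summit in the promoter window. The change of a gene was the mean of its 2 SAP30-KO1 ranks less the mean of its 2 parental ranks, in points of percent rank, so that a positive change is a place farther down the list in SAP30-KO1 cells. A gene was called lower in SAP30-KO1 without overlap when both SAP30-KO1 ranks were worse than both parental ranks, and higher when both were better. A peak was called lost when both parental lists and neither SAP30-KO1 list had a summit in the window, and gained in the opposite case. These calls are descriptions of 4 lists.

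The reference sequence before the start site is shown for 5 promoters that the text returns to. PDGFD and RDX are arm genes that the study followed as targets of SAP30. KMT2A, also on the arm, encodes MLL1, which the study examined as a protein partner of SAP30. TMEM218 had the largest change in Pol II downwards among SAP30 promoters, and CTSF the largest upwards. Each stretch is the 250 bases that precede the canonical start site in GRCh37, written 5′ to 3′ along the gene's strand, and capitals mark matches to the motifs listed after them. PDGFD covers chr11:104034876-104035125, RDX chr11:110167340-110167589, TMEM218 chr11:124981523-124981772 and CTSF chr11:66336078-66336327, all on the minus strand, and KMT2A covers chr11:118306957-118307206 on the plus strand.
PDGFD: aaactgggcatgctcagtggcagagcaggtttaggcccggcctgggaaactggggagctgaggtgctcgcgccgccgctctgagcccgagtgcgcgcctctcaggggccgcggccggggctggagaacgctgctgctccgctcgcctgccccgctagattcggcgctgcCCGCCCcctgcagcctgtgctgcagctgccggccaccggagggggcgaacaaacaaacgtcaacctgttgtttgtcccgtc
RDX: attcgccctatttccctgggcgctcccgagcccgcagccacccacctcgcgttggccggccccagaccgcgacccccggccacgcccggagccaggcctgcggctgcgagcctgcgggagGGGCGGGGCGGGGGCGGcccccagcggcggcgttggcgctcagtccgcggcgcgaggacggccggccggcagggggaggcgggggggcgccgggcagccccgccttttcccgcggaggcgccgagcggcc
KMT2A: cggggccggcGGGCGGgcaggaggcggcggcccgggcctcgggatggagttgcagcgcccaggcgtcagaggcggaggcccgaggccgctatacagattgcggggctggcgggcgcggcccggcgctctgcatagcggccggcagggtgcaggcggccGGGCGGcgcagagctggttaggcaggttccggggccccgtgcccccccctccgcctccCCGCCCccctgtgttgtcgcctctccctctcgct
TMEM218: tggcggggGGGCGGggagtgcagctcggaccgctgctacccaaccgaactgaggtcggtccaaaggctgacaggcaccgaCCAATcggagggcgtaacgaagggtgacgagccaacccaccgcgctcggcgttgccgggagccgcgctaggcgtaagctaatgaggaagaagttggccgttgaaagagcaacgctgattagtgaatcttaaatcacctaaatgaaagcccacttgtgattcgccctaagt
CTSF: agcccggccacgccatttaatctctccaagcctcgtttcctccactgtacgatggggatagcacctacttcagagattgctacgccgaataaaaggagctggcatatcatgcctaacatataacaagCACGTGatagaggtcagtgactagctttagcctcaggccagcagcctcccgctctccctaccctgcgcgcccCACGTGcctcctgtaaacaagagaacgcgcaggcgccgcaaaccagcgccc

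The capitals are GGGCGG (the GC box bound by Sp and KLF factors), CCGGAAG (an ETS motif), GCGCATG (part of the NRF1 motif), CACGTG (the E-box), CCAAT (bound by NF-Y) and TATAAA (the TATA box), searched on both strands. None of these motifs contains another, although copies of GGGCGG can overlap each other by a base. The RDX stretch holds 3 GC boxes side by side, that of KMT2A holds 3 apart, and those of PDGFD and TMEM218 hold 1 each. TMEM218 also holds 1 CCAAT. CTSF differs in that it has 2 E-boxes and no GC box. A match is a description of the letters and says nothing about binding.

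Across the arm, promoters with and without SAP30 were different kinds of sequence. Over the 300 bases from 250 before to 50 after the start site, the median GC content was 66% at the 481 arm genes with SAP30 and 48.3% at the 361 without, beside 63.7% over all 20098 genes. The ratio of observed to expected CpG was 0.862, 0.21 and 0.773 in the same order. A GC box was found in 73.8% of the arm promoters with SAP30, in 21.6% of those without and in 61% of all promoters. The ETS motif was found in 23.3%, 1.66% and 14%, and GCGCATG in 7.69%, 1.11% and 5.8%. CACGTG was found in 8.32%, 3.32% and 8.74%. TATAAA went the other way, at 4.16%, 23% and 9.82%, and CCAAT was about even at 38%, 37.1% and 35.9%. The SAP30 promoters of the arm were thus mostly CpG-rich, as were SAP30 promoters elsewhere, whose median GC content was 66.7%.

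SAP30 lay at 481 of the 867 arm promoters in both parental replicates (55.5%), at 25 in 1 replicate and at 361 in neither. Over all protein-coding genes the share was 61.2%, on the short arm of chromosome 11 it was 48%, and off the arm it was 61.4%. SIN3B had a summit in both replicates at 430 arm promoters and SIN3A at 307. Of the 481 SAP30 promoters, 295 had both SIN3A and SIN3B, 124 had SIN3B, 8 had SIN3A and 54 had neither in both replicates. Where they were bound, arm promoters stood higher in the SAP30 and SIN3B lists than promoters elsewhere. The median SAP30 rank was 12.9 and 13.8 in the 2 replicates on the arm and 17.4 and 17.8 off it. For SIN3B the medians were 15.7 and 17.5 on the arm and 20.6 and 22.9 off it. For SIN3A they were 30.6 and 39.4 on the arm and 37.2 in both replicates off it, so the SIN3A replicates did not share a direction. Such ranks were not particular to the arm. On the long arm of chromosome 16 the SAP30 medians were 9.15 and 9.03, and on the short arm of chromosome 11 they were 13.4 and 16.02 for SAP30 and 15.8 and 19.2 for SIN3B.

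Pol II at arm promoters was farther down the list in both SAP30-KO1 libraries than in both parental ones. The 402 arm genes with a Pol II summit in all 4 lists had a median rank of 20.9 and 17.6 in the parental replicates and of 28.6 and 30.9 in the SAP30-KO1 replicates. Off the arm the medians were 24.98 and 22.4, then 23.4 and 24.8. Arm genes thus stood above the rest of the genome in both parental lists and below it in both SAP30-KO1 lists.

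The median change in Pol II rank was 9.93 points over the 402 arm genes, with quartiles of 2.83 and 18.02 and a range from −30.9 to 56.5, and it was 1.48 points over all 10706 genes with a summit in all 4 lists. For each SAP30-KO1 list against each parental list, the arm median exceeded that of the genes off the arm by 6.97 to 9.51 points. Between replicates of 1 line it did so by 1.04 points in parental cells and by 1.34 in SAP30-KO1 cells. The gap between the lines was larger than that between replicates in each of the 4 pairings. Of the 402 genes, 219 (54.5%) were lower in SAP30-KO1 without overlap, beside a background of 24.2% over all genes tested, and 10 were higher, beside 15.4%.

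H3K4me3 moved in the same direction. Its median rank over 487 arm genes was 19.0 and 22.9 in the parental replicates and 32.6 and 30.0 in the SAP30-KO1 replicates, whereas off the arm it was 23.7 and 25.5, then 27.0 and 24.1. The median change was 8.51 points on the arm (quartiles 3.60 and 13.1) and 2.097 over all 12531 genes. Pairs of lists between the lines differed by 5.94 to 7.49 points more on the arm than off it, against 0.72 and −0.40 between replicates. There were 283 arm genes lower without overlap (58.1%, background 28.1%) and 14 higher (background 11.5%).

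H3K9Ac had the narrowest quartiles of change in points of rank, although its changes ranged from −39.9 to 39.9. Over 470 arm genes its median rank was 8.34 and 8.21 in parental cells and 14.2 and 14.5 in SAP30-KO1 cells, while off the arm all 4 libraries lay between 11.8 and 12.5. The median change was 5.09 points on the arm (quartiles 2.52 and 7.95) and 0.309 over all 12048 genes. Between the lines the arm exceeded the rest by 4.62 to 5.06 points in every pairing, and between replicates by −0.04 and −0.08. Lower without overlap were 303 arm genes (64.5%, background 22.1%), and 10 were higher (background 16.4%). The share of all H3K9Ac summits that lay on the arm, promoters or not, went from 3.24% and 3.23% in parental replicates to 2.89% and 2.92% in SAP30-KO1. The other targets showed no such fall. For H3K4me3 the share was 3.47% and 3.49%, then 3.49% and 3.54%. For Pol II it overlapped between the lines, at 3.82% and 3.71%, then 3.59% and 3.82%.

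**Figure D1:**
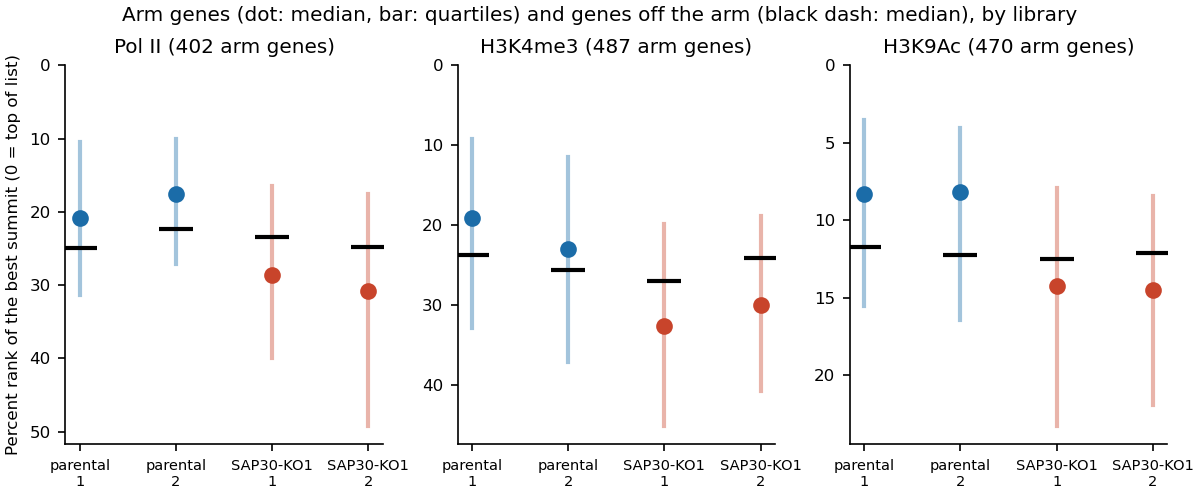
Median percent rank (dot) and quartiles (bar) of the best promoter summit over arm genes in each library, with the median of genes off the arm as a black dash; the vertical axis runs from 0, the top of the list, downwards. For Pol II the arm medians were 20.9 and 17.6 in parental and 28.6 and 30.9 in SAP30-KO1 libraries, and for all 3 targets the arm lay above the dash in the parental libraries and below it in the SAP30-KO1 libraries.

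On the scale of the scores, each score was divided by the median score of its own list over the genes present in all 4 lists. The median arm gene then had 0.742 times the parental relative score for Pol II (−0.43 on the log2 scale), 0.854 times for H3K4me3 (−0.23) and 0.732 times for H3K9Ac (−0.45). Off the arm the log2 medians were 0.05, −0.00 and 0.02. Since ranks near the top of a list are crowded, the genes were also split into 4 groups of equal size by mean rank over all genes. In the best-ranked group, 76 arm genes had a median Pol II change of 2.83 points in rank and of −0.39 in log2 relative score. In the lowest group, 84 arm genes changed by 19.4 points and by −0.54. Genes off the arm changed by 0.099 points in the best group and by 7.63 in the lowest. The arm thus exceeded them by 2.74 and 11.8 points. For Pol II the change in points thus varied more with the rank of the gene than the change in relative score did. For H3K9Ac the log2 medians ran from −0.38 in the best group to −0.51 in the lowest, and for H3K4me3 from −0.03 to −0.59, where genes off the arm went from 0.10 to −0.23. In points H3K4me3 changed by 4.25 in the best group and by 8.04 in the lowest. These exceeded the genes off the arm by 4.65 and 4.17 points. In the groups between, the excess was larger, at 8.33 and 7.82 points.

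Set beside 39 other chromosome arms with at least 50 such genes, this arm had the largest median change for each of the 3 targets, which is what it was chosen on. The next were the long arm of chromosome 16 for Pol II (8.28 points, 223 genes), the long arm of chromosome 4 for H3K4me3 (5.49) and again 16q for H3K9Ac (1.78). The short arm of chromosome 11 was 23rd for Pol II, at 1.054 points, 25th for H3K4me3, at 1.37, and 33rd for H3K9Ac, at −0.38. The change was therefore not shared by the 2 arms of the chromosome.

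**Figure D2:**
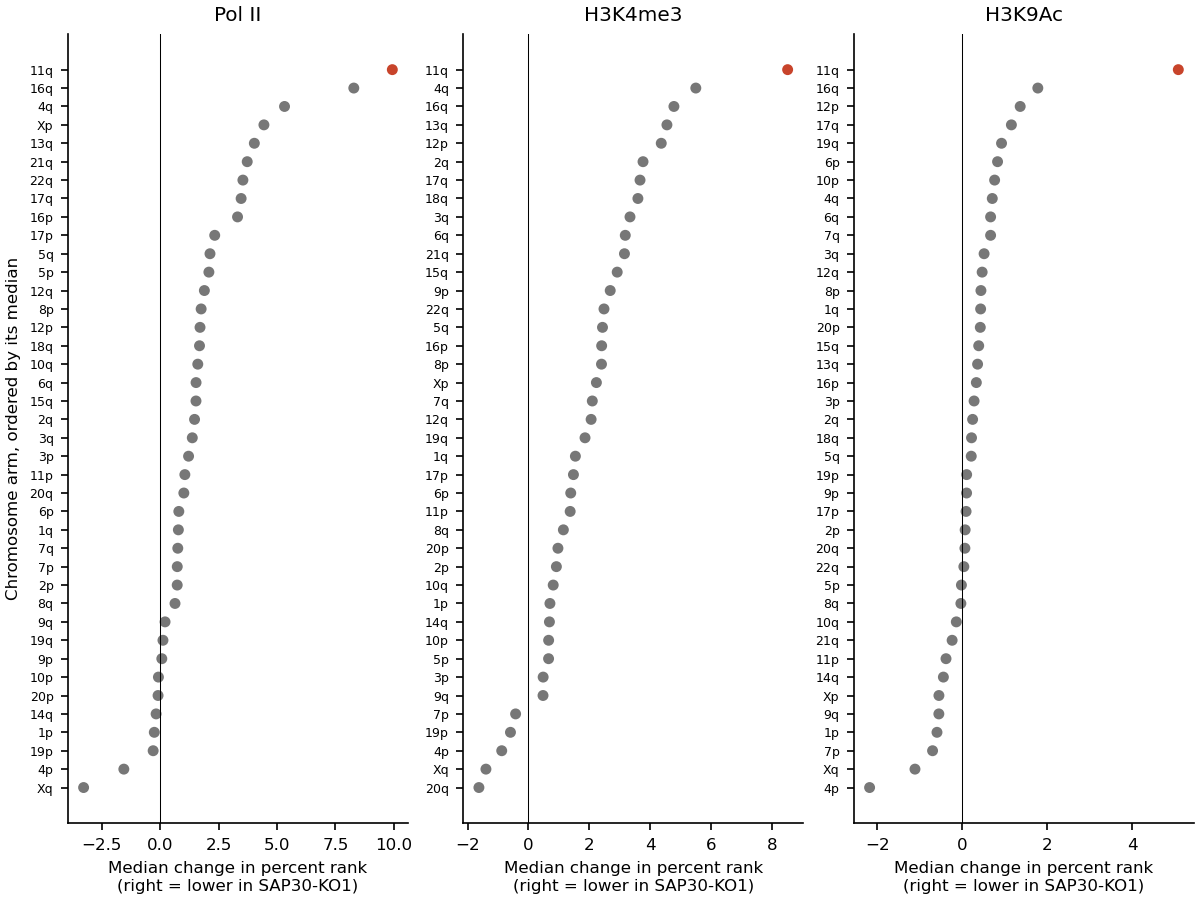
Median change in percent rank of promoter summits for each of 40 chromosome arms, ordered within each target, with the long arm of chromosome 11 in red; values to the right are farther down the list in SAP30-KO1. The red point is the first of 40 in each panel, at 9.93, 8.51 and 5.09 points.

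The values on both sides of the centromere were read from single genes. The nearest genes to the centromere with Pol II in all 4 lists were TNKS1BP1 and SLC43A3 on the long arm and PTPRJ and NUP160 on the short arm. TNKS1BP1, which encodes a tankyrase-binding protein, had H3K9Ac ranks of 10.4 and 15.3 in parental and 24.3 and 25.5 in SAP30-KO1 lists. SLC43A3, a purine base transporter gene, had 0.637 and 0.829, then 9.55 and 3.24. On the other side of the gap, PTPRJ, a receptor tyrosine phosphatase gene, had 1.33 and 0.920, then 0.317 and 0.392, and NUP160, a nuclear pore gene, 9.20 and 9.03, then 7.79 and 8.86. Both long-arm genes were lower without overlap, and both short-arm genes were slightly better placed in SAP30-KO1 cells. In the other targets the sides differed less clearly. Pol II had changes of 31.1 and 12.7 points at TNKS1BP1 and SLC43A3 and of 10.9 and −1.06 at PTPRJ and NUP160, and H3K4me3 changed by −6.57 and 11.5 at those 2 short-arm genes. A window wider by 500 bp at each side would add 11 arm genes for Pol II, with a median change of 10.8 points, while the 25 genes whose best summits needed more than 500 bp had 8.41.

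Along the arm the change was nearly continuous. In stretches of 5 Mb, the median Pol II change was above the genome's median in 15 of 16, from 3.48 points between 85 and 90 Mb (14 genes) to 18.9 between 110 and 115 Mb (25 genes). The exception was the stretch from 80 to 85 Mb, at −0.62 over 7 genes, of which 0 were lower without overlap. Both histone marks were also weakest in this region. For H3K9Ac the medians were 1.65 points between 80 and 85 Mb (6 genes) and 0.677 between 85 and 90 Mb (15 genes), and between 3.89 and 10.1 in the other stretches. For H3K4me3 the lowest median was 3.37, again between 80 and 85 Mb. RAB30, a Golgi Rab GTPase gene that lies there, was the only arm gene higher without overlap in all 3 targets, which was 1 of 394 (background 1.1%). Its Pol II ranks were 23.6 and 23.03 in parental and 17.2 and 18.9 in SAP30-KO1 lists.

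Most arm genes changed by more than the genome's median, 317 of 402 in Pol II, 393 of 487 in H3K4me3 and 427 of 470 in H3K9Ac. With such shares long runs are found in any order of the genes, and they say nothing of neighbours. The longest unbroken run of genes changed by more than the genome's median was 53 genes for H3K9Ac, from DDX10 to VPS11, 23 for H3K4me3, from HINFP to SPA17, and 21 for Pol II, from LPXN to FADS1. Genes that share a window count separately in these runs.

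**Figure D3:**
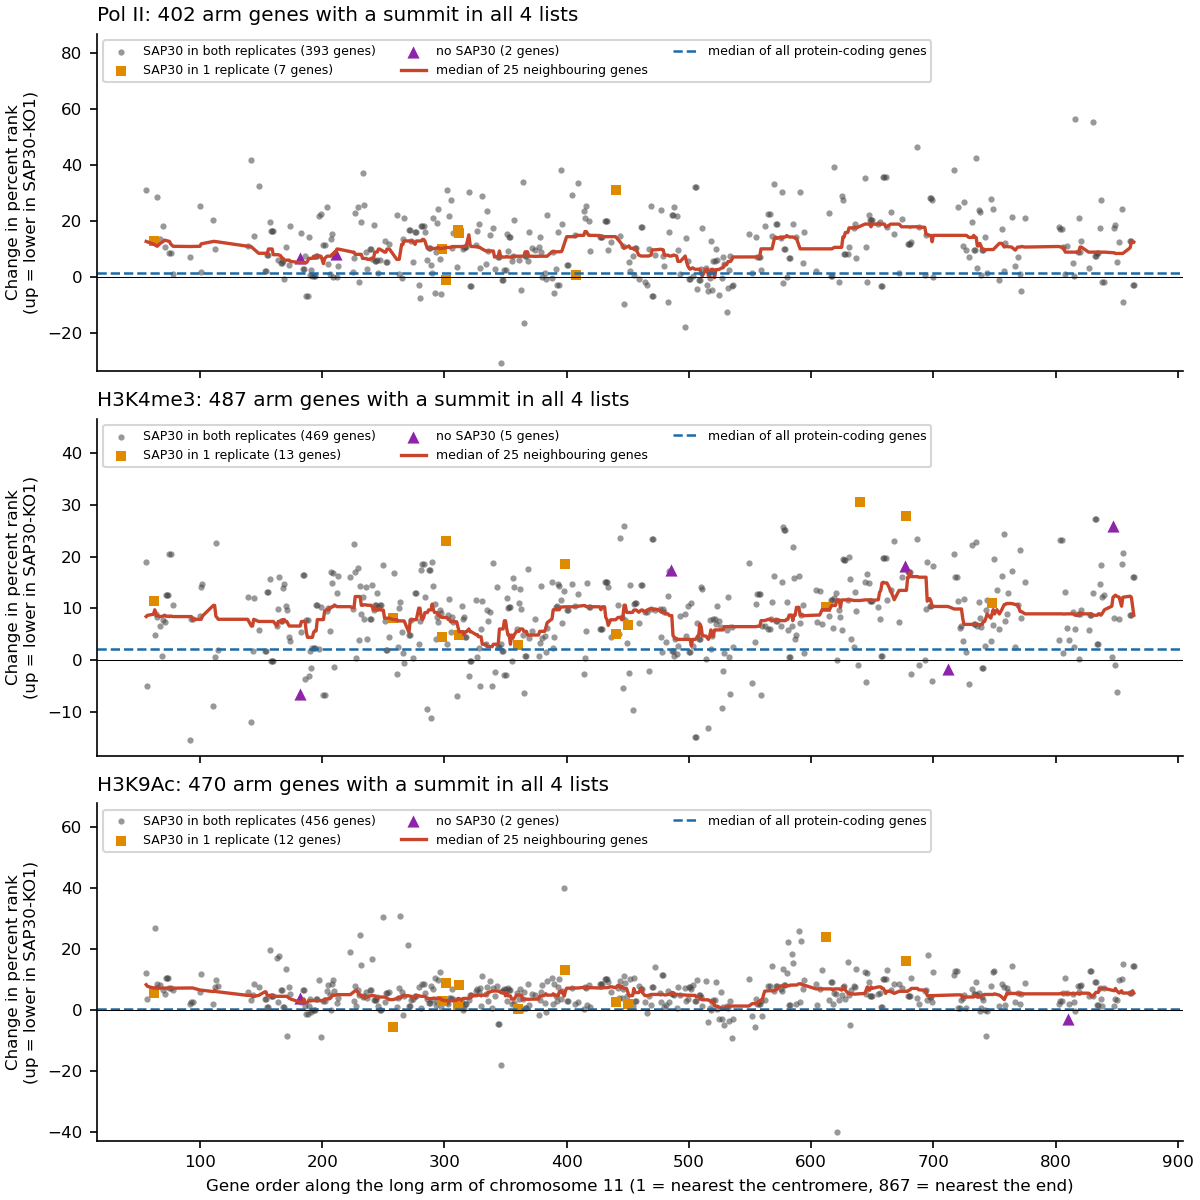
Change in percent rank for each arm gene with a summit in all 4 lists (402, 487 and 470 genes), in gene order from the centromere, with marker and colour for SAP30; the red line is the median of 25 neighbouring genes and the dashed line the median of all protein-coding genes. The red line stays above the dashed line for most of the arm. For Pol II and H3K9Ac it is lowest around genes 513 to 549, where the Pol II medians were −0.62 and 3.48 in stretches of 5 Mb.

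The 3 targets were lower together more often on the arm than elsewhere. Of 394 arm genes with summits in all 12 lists, 91 (23.1%) were lower without overlap in all 3, beside a background of 2.92% and 2.13% off the arm. In sign alone, 279 of the 394 (70.8%) had a positive change in all 3 targets, against 21.5% off the arm, and 2 (RAB30 and PICALM, a clathrin assembly gene) had a negative change in all 3. Gene by gene the sizes were only loosely related. Across the 394 genes Pearson's r was 0.0988 between Pol II and H3K4me3, 0.143 between Pol II and H3K9Ac and 0.379 between the histone marks, and off the arm it was 0.0943, 0.0781 and 0.329. Each pair of targets comes from separate libraries but from the same 2 lines, and genes are not independent replicates.

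Of the 91 genes lower in all 3 targets, 5 are named for their mean change over the targets. SLC37A4, which encodes the glucose-6-phosphate transporter of the endoplasmic reticulum, had the largest. Its Pol II ranks were 14.1 and 18.01 in parental and 80.3 and 37.1 in SAP30-KO1 lists, its H3K4me3 ranks 10.6 and 11.3, then 41.3 and 26.2, and its H3K9Ac ranks 13.5 and 14.6, then 27.3 and 19.0. BUD13, which encodes a splicing factor, went from 8.32 and 7.93 to 39.9 and 69.0 in Pol II and from 9.14 and 8.48 to 38.9 and 25.3 in H3K4me3. CDON, a cell surface co-receptor gene of Hedgehog signalling, went from 27.2 and 17.8 to 72.3 and 83.3 in Pol II. In H3K4me3 CDON had 8.17 and 18.4 in parental and 18.5 and 33.9 in SAP30-KO1 lists, so its lines were close to overlapping there. UBE4A, a ubiquitin ligase gene, had Pol II ranks of 40.4 and 17.9, then 51.8 and 83.3. The fifth was ENSG00000255292, a gene model that shares its promoter window with SDHD, and its ranks are those given for SDHD.

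TMEM218 encodes a membrane protein of the primary cilium and had the largest change in Pol II. It ranked at 27.9 and 34.9 in parental and at 88.7 and 87.1 in SAP30-KO1 lists, a change of 56.5 points. Both SAP30-KO1 ranks are tied low scores. The first is that of a tie of 796 summits, and the second is shared with COX8A and SDHD. Its H3K4me3 ranks overlapped between the lines, at 23.2 and 37.6, then 41.2 and 31.6, as did H3K9Ac, at 20.6 and 18.1, then 19.4 and 18.5. Of the 3 targets, Pol II alone was lower without overlap there. PRPF19, a splicing factor and ubiquitin ligase gene, had Pol II ranks of 31.0 and 29.4, then 67.8 and 76.2. At PRPF19 H3K4me3 went the other way without overlap, from 30.8 and 18.4 to 15.7 and 9.93.

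Of the 10 genes with Pol II higher without overlap, CTSF, a lysosomal protease gene, had the largest change. Its Pol II ranks were 96.5 and 51.1 in parental and 48.3 and 37.6 in SAP30-KO1 lists, and its H3K9Ac ranks 42.9 and 30.9, then 20.9 and 17.1. The 2 parental Pol II values stand far apart, and the change was −30.9 points. PAK1, which encodes a kinase downstream of Rac and Cdc42, had Pol II ranks of 49.9 and 38.1, then 34.3 and 17.997. H3K9Ac at PAK1 was lower, from 14.5 and 17.2 to 24.6 and 21.4. POLD4, which encodes a small subunit of DNA polymerase delta, showed the same pair of opposite changes, with Pol II at 35.0 and 31.5, then 10.5 and 22.7, and H3K9Ac at 6.43 and 0.980, then 12.1 and 7.01.

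Scores repeat within a list, so low ranks come in steps. In SAP30-KO1 replicate 2 of Pol II, 22121 summits had 1433 different scores, and the largest tie was 1032 summits at a rank of 64.2. In SAP30-KO1 replicate 1, 23340 summits had 1682 different scores, and the largest tie was 796 summits at 88.7. In the parental Pol II lists the largest ties were 417 and 308 summits, at ranks of 85.8 and 89.3. The median Pol II score was also lower in the SAP30-KO1 lists, at 7.21 and 5.80 against 14.0 and 15.5. The part of these differences between lists in the change of a single gene was not tested.

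Promoter letters were also counted in arm genes whose Pol II was lower without overlap and in the other arm genes with Pol II in all 4 lists. The median GC content was 66.7% at the 219 lower genes and 66.3% at the other 183, and a GC box was found in 77.2% and 72.7%. The ETS motif was found in 28.3% and 24%, CCAAT in 40.2% and 36.6%, and TATAAA in 4.57% and 4.92%. GCGCATG was found at 25 of the lower genes (11.4%) and at 9 of the others (4.92%), and CACGTG at 13 (5.94%) and 17 (9.29%). The printed promoters of TMEM218 and RDX belong to the first set and that of CTSF to the second. No test was made of these shares.

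**Figure D4:**
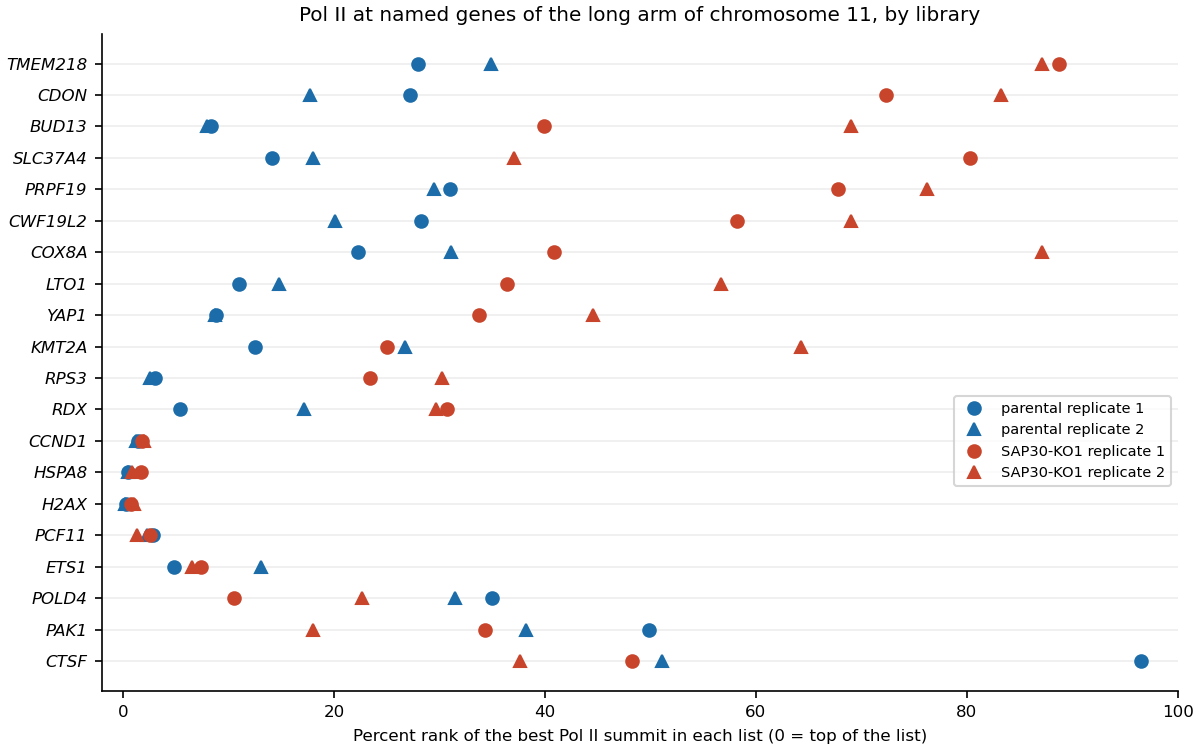
Percent rank of the best Pol II summit in each of the 4 libraries for 20 named arm genes; circles and triangles are replicates 1 and 2, blue is parental and red is SAP30-KO1. TMEM218 lies at 27.9 and 34.9 in blue and at 88.7 and 87.1 in red, H2AX lies below 1 in all 4, and CTSF lies farther to the left in red than in blue.

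On this arm the study followed PDGFD and RDX as target genes and KMT2A for its protein, and each gene had SAP30 in both replicates. RDX encodes radixin, which links actin to the membrane. Its Pol II ranks were 5.34 and 17.2 in parental and 30.7 and 29.6 in SAP30-KO1 lists, and its H3K9Ac ranks 5.20 and 0.716, then 14.2 and 6.84, both without overlap. H3K4me3 at RDX overlapped, at 17.4 and 1.53, then 13.8 and 31.3. The study counted RDX among genes activated by SAP30 with SIN3A and SIN3B. At such genes it reported less H3K4me3 and unaltered H3K9ac in SAP30-KO1 cells. It read enrichment over sets of genes and tracks of single genes, which is another measure than the rank of a best summit. RDX stood at 4.55 and 1.54 in the SAP30 lists, so its GC-box promoter was among the best-ranked SAP30 sites.

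PDGFD, which encodes platelet-derived growth factor D, lost its Pol II peak. The peak had ranked at 75.4 and 52.8 in the parental lists, in the lower part of both. H3K4me3 at PDGFD went from 46.1 and 49.0 to 62.7 and 59.1, and H3K9Ac overlapped, at 50.4 and 31.7, then 53.5 and 42.4. Its SAP30 ranks were 24.8 and 50.6, and neither SIN3A nor SIN3B had a summit in its window. The study displayed ChIP-seq tracks of both SIN3 proteins at PDGFD as a representative gene. By quantitative PCR after ChIP, it did find both SIN3 proteins there, with less of each after SAP30 knockout. A missing summit is therefore not evidence that they are absent there.

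KMT2A encodes MLL1, an H3K4 methyltransferase, and had a SAP30 summit near the top of both lists, at 0.344 and 0.732. Its Pol II ranks were 12.5 and 26.7 in parental and 25.03 and 64.2 in SAP30-KO1 lists, which overlap, and the last of these lies in the tie of 1032 summits. H3K4me3 was lower without overlap, from 0.320 and 2.77 to 7.80 and 18.1. H3K9Ac overlapped, at 4.86 and 4.88, then 7.26 and 4.09. H3K4me3 was thus the target lower without overlap at PDGFD and KMT2A, and Pol II and H3K9Ac were at RDX.

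The 5 largest changes in H3K4me3 without overlap were at 2 promoters far down the parental lists and at 3 genes near the top. POU2AF3, which encodes a co-activator of the tuft cell factor POU2F3, ranked at 59.6 and 60.4 in parental and at 88.6 and 92.4 in SAP30-KO1 lists. NNMT, nicotinamide N-methyltransferase, ranked at 66.7 and 65.3, then 91.7 and 95.9, and its H3K9Ac ranks were 23.02 and 14.5, then 44.8 and 25.1. Both had SAP30 in 1 replicate only. The shared promoter of RPUSD4, a mitochondrial pseudouridine synthase gene, and FAM118B stood much higher, at 6.44 and 12.9, and went to 38.8 and 35.0. FCHSD2, an endocytosis gene, went from 15.6 and 10.4 to 34.5 and 43.3, while its Pol II was higher without overlap, from 35.3 and 25.7 to 24.1 and 17.6. Among genes without overlap the largest change upwards was at the window shared by NDUFC2, a complex I subunit gene, and NDUFC2-KCTD14, from 21.8 and 31.8 to 9.34 and 14.4. Pol II at the same window went from 32.3 and 24.6 to 34.1 and 87.1, so the 2 targets went opposite ways.

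In H3K9Ac the largest change was at TESMIN, which encodes a metallothionein-like protein of the testis, from 22.3 and 22.6 to 57.5 and 67.2. CDC42BPG, a kinase gene, went from 30.6 and 36.6 to 84.9 and 44.1, and CATSPERZ, a sperm calcium channel gene, from 32.4 and 26.8 to 80.0 and 40.1. RTN4RL2, a Nogo receptor homologue, and CFAP300, a cilium assembly gene, changed by 27.0 and 26.0 points. All 5 carried SAP30 in both replicates, as did 456 of the 470 arm genes with H3K9Ac in all 4 lists. In none of the 5 was Pol II found in all 4 lists. The largest changes upwards were ELMOD1, from 94.7 and 70.0 to 49.97 and 34.8, CTSF, and RAB38, a Rab GTPase gene of melanosomes, from 38.6 and 42.9 to 25.1 and 38.2.

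Lost peaks were counted apart from changes in rank. Of 453 arm genes with Pol II in both parental lists, 15 (3.31%) had it in neither SAP30-KO1 list, beside a background of 2.33%. The figures were 15 of 505 for H3K4me3 (2.97%, background 1.43%) and 5 of 482 for H3K9Ac (1.04%, background 0.689%). Gained peaks numbered 1 for Pol II (background 0.249%), 1 for H3K4me3 (background 0.166%) and 0 for H3K9Ac (background 0.538%). The counts of lost peaks depended on single libraries. For Pol II the count was 42 without SAP30-KO1 replicate 1, 24 without SAP30-KO1 replicate 2 and 19 without either parental replicate, and for H3K9Ac it was 11 and 12 without parental replicates 1 and 2 and 8 and 9 without SAP30-KO1 replicates 1 and 2.

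The lost peaks were low in the lists. Among those of Pol II, the best placed was at ARRB1, the beta-arrestin 1 gene, at 44.5 and 43.2, where H3K9Ac went from 7.33 and 11.6 to 15.02 and 15.3. SMCO4 followed at 49.9 and 57.0, CNTN5, a neural adhesion gene, at 58.8 and 62.8, and BIRC3, an inhibitor of apoptosis, at 54.9 and 70.5. H3K9Ac at BIRC3 was lower without overlap as well, from 48.5 and 37.2 to 81.7 and 49.1. The lost H3K4me3 peaks were led by ASRGL1, an asparaginase gene, at 55.7 and 54.9, then ACY3, SORL1, GLB1L2 and KCNE3, the last at 67.0 and 67.4. ASRGL1 lost H3K9Ac too, from 60.0 and 67.0, as did KCNK4, a potassium channel gene, and ST14, which encodes the protease matriptase. The others were RASGRP2, an exchange factor gene for Rap1, and TMEM45B. Of the 15 lost Pol II peaks, 1 had ranked better than 50 in both parental lists, and 0 of the lost H3K4me3 and H3K9Ac peaks had. The gained peaks were Pol II at the readthrough gene ZFP91-CNTF, at 44.1 and 64.2, and H3K4me3 at ROBO3, an axon guidance receptor gene, at 73.9 and 70.8.

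The question of SAP30 itself could hardly be put at these promoters, because active promoters without SAP30 were nearly absent. Of the 402 genes with Pol II in all 4 lists, 393 had SAP30 in both replicates, 7 in 1 and 2 in neither, and for H3K4me3 the last group held 5 genes and for H3K9Ac 2. Of the 15 lost H3K4me3 peaks, 7 were at genes without SAP30, 4 at genes with SAP30 in 1 replicate and 4 at genes with it in both. Off the arm the same classes held 96, 32 and 41 of 169 lost H3K4me3 peaks. Of the 15 lost Pol II peaks 14 were at genes with SAP30 in both replicates, and of the 5 lost H3K9Ac peaks 1 was. Off the arm it was 222 of 255 for Pol II and 45 of 80 for H3K9Ac. The genes without SAP30 and with a summit in all 4 lists were looked at one by one, having been chosen by their lack of SAP30 and not by the naming rule.

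AHNAK, which encodes a very large scaffold protein, had no SAP30 summit but had SIN3A and SIN3B in both replicates. Its Pol II ranks were 2.33 and 4.67 in parental and 11.9 and 8.29 in SAP30-KO1 lists, and its H3K9Ac ranks 0.196 and 0.573, then 4.98 and 3.53, lower without overlap in both. Its H3K4me3 overlapped, at 0.793 and 18.1, then 3.26 and 2.45. TEX54 was the other Pol II gene, at 28.4 and 28.3, then 30.7 and 42.0, but these are also the ranks of STX5, a neighbour with SAP30 in both replicates whose window shares the summit. AHNAK was therefore the one Pol II gene without SAP30 that had a summit of its own. For H3K4me3, WNT11, a Wnt ligand gene, went from 75.6 and 70.1 to 94.6 and 85.9, ZBTB16, a transcription factor gene, from 69.5 and 66.2 to 99.8 and 72.1, and TMEM45B from 65.6 and 60.5 to 94.99 and 82.9. MPZL3 overlapped, at 66.4 and 64.2, then 68.5 and 58.6. Apart from MPZL3 and AHNAK, the H3K4me3 genes without SAP30 were therefore lower without overlap, 3 of 5. Off the arm, 106 of 256 such genes (41.4%) were lower as well. ROBO3, the second for H3K9Ac, overlapped at 11.8 and 37.1, then 22.6 and 20.1.

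In medians, Pol II changed by 9.93 points at arm genes with SAP30 and by 7.32 at the 2 without, 1 of which holds the summit of STX5, H3K4me3 by 8.41 and by 17.4 at the 5 without, and H3K9Ac by 5.11 and by 0.392 at the 2 without. Groups of 2 and 5 genes cannot carry a comparison, and the sign of the difference turned with the window or with a single library left out for each target. Genes with SAP30 in 1 replicate changed by 12.7 points in Pol II (7 genes), 10.2 in H3K4me3 (13 genes) and 4.36 in H3K9Ac (12 genes). Those values lie on the same side of the medians off the arm as the values of genes with SAP30 in both replicates.

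The SAP30 promoters were also split by which SIN3 proteins they had in both replicates. For Pol II the median was 9.75 points where SIN3A and SIN3B were also present (265 genes), 10.2 with SIN3B (109), 6.72 with SIN3A (7) and 3.96 with neither (12). In H3K9Ac the same classes had 4.88 (287 genes), 5.16 (123), 6.25 (8) and 7.04 (38). For H3K4me3 all 4 medians lay between 8.24 and 8.92. Promoters with SAP30 alone had the smallest median in Pol II and the largest in H3K9Ac, and the quartiles of all 4 classes overlapped. On the log2 scale of relative scores, Pol II was at −0.03 with SAP30 alone and at −0.44 with both SIN3 proteins, and lower calls without overlap were 16.7% and 54.3%. Off the arm the same classes had 0.14 and 0.03, and 24.3% and 22.5%. Of the Pol II peaks at promoters with SAP30 alone, 6 were lost beside the 12 in all 4 lists, against 1 lost beside 265. Such losses were not particular to the arm, since elsewhere 143 were lost beside 815, against 11 beside 5591. In H3K4me3 the log2 medians were −0.63 with SAP30 alone and −0.19 with both SIN3 proteins, with lower calls at 73.3% and 55.3%. The order was the same off the arm, at −0.22 and 0.04, with lower calls at 48.2% and 20.4%. Promoters with SAP30 alone also stood farther down the parental Pol II lists, at medians of 49.9 and 30.6 against 18.9 and 17.0, and the part of rank in these values was not tested.

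Away from start sites there were more places without SAP30. Summits of the 4 lists within 1000 bp of each other were joined, and regions present in all 4 lists and away from any protein-coding or long noncoding RNA start site were taken. On the arm, 332 such H3K9Ac regions had a median change of 7.48 points, beside 2.08 at 12249 regions off the arm. The 78 arm regions without SAP30 changed by 6.88 points and the 195 with SAP30 by 7.39, while off the arm the same classes had 1.25 and 2.22. On the log2 scale of relative scores the arm regions had −0.32 without and −0.35 with SAP30. H3K9Ac was thus farther down the list at arm regions with and without SAP30 by similar medians, with quartiles of −2.72 and 23.4 without SAP30. Pol II regions were few, with 6.52 points at 5 arm regions without SAP30 and 9.89 at 31 with it. H3K4me3 had 2.32 points at 12 arm regions without SAP30 and 7.80 at 68 with it, while the regions off the arm had 5.00 and 5.07. This split of the distant regions by SAP30 was chosen after the promoter values were seen.

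**Figure D5:**
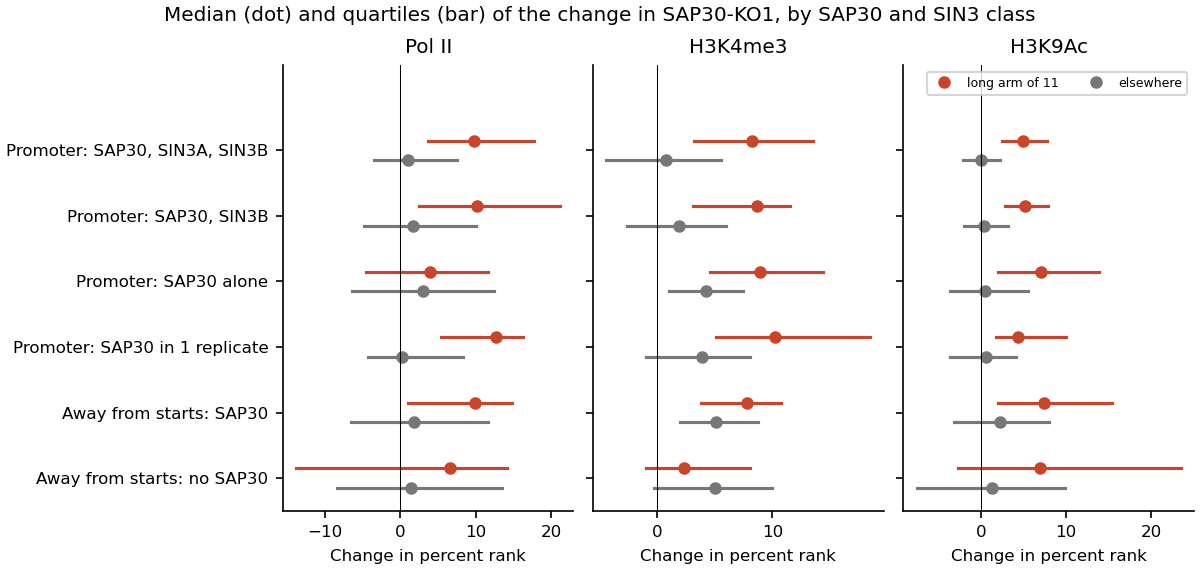
Median (dot) and quartiles (bar) of the change in percent rank for promoter classes by SAP30, SIN3A and SIN3B and for regions away from start sites, on the long arm of chromosome 11 (red) and elsewhere (grey); promoters without SAP30 and those with SAP30 and SIN3A are too few to draw. For H3K9Ac away from start sites the red medians were 7.39 with SAP30 and 6.88 without, and the grey ones 2.22 and 1.25.

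Gene groups of the arm are described by counts, and since all members are arm genes the counts are to be read beside the arm's own shares of lower calls, 54.5% in Pol II, 58.1% in H3K4me3 and 64.5% in H3K9Ac. No group was tested against the arm. In H3K4me3, 9 of 17 chromatin regulators, 5 of 12 DNA damage and replication genes and 7 of 13 translation genes were lower without overlap. The counts were 7 of 12 for mitochondrial respiration, 8 of 16 for RNA processing and transcription and 2 of 6 for chaperones. Motility and angiogenesis genes had 5 of 12, the genes around CCND1 5 of 7, and the YAP1, BIRC and caspase genes 4 of 4. Of 17 chromatin regulators, 15 had Pol II in all 4 lists and 10 of them were lower without overlap, with a median change of 11.4 points, and for H3K9Ac it was 9 of 16. KAT5, which encodes the acetyltransferase TIP60, had the largest Pol II change of the group, from 27.2 and 28.3 to 68.7 and 42.0. RSF1, a chromatin remodelling gene, overlapped in Pol II, at 13.8 and 11.3, then 8.83 and 14.3, but H3K9Ac went from 0.769 and 0.552 to 10.3 and 6.14. H2AX, a histone gene, stayed near the top in Pol II, at 0.256 and 0.204, then 0.778 and 0.999, which is lower without overlap by less than 1 point.

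DNA damage and replication genes had 7 of 13 lower without overlap in Pol II and 11 of 13 in H3K9Ac. MRE11, a nuclease gene of double-strand break repair, went from 35.0 and 22.1 to 41.9 and 60.3, and INCENP, a subunit gene of the chromosomal passenger complex, from 36.5 and 47.8 to 53.2 and 67.8. Of the genes of translation, 7 of 11 were lower in Pol II. RPS3, a ribosomal protein gene, went from 2.98 and 2.58 to 23.4 and 30.2, while its H3K9Ac overlapped, at 4.17 and 13.0, then 8.15 and 14.1. FAU, another ribosomal protein gene, went from 12.1 and 10.6 to 30.7 and 28.1, whereas MRPL48 and EIF1AD overlapped.

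Genes of mitochondrial respiration had the largest median of these groups in Pol II, 27.4 points over 11 genes, of which 8 were lower without overlap. COX8A, a subunit gene of cytochrome c oxidase, went from 22.3 and 31.1 to 40.8 and 87.1, and SDHD, a subunit gene of succinate dehydrogenase, from 35.5 and 20.1 to 39.9 and 87.1. These 2 genes, like NDUFC2, had most of the change in SAP30-KO1 replicate 2, in which they stand at the same tied rank of 87.1. SDHD was lower in the histone marks too, with H3K4me3 from 6.11 and 13.0 to 32.1 and 26.3. UCP2 and NDUFS8 overlapped in Pol II, at changes of −0.79 and −5.93 points, yet were lower in H3K9Ac, at 7.82 and 8.38.

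For RNA processing and transcription, 9 of 13 genes were lower in Pol II and 11 of 16 in H3K9Ac. CWF19L2, a splicing gene, had the largest change, from 28.3 and 20.1 to 58.2 and 69.0. SF1, the branch point binding protein gene, went from 6.03 and 11.3 to 15.1 and 46.4, with H3K9Ac from 0.0348 and 0.330 to 1.01 and 1.14. PCF11, a gene of transcription termination that lies in the stretch from 80 to 85 Mb, overlapped in all 3 targets, with Pol II at 2.86 and 2.23, then 2.58 and 1.28. ETS1, a transcription factor gene, overlapped in Pol II but was lower in both marks. Chaperone genes had 3 of 6 lower in Pol II and 5 of 6 in H3K9Ac. At HSPA8, the constitutive HSP70 gene, Pol II went from 0.410 and 0.413 to 1.67 and 0.827, while H3K4me3 went from 1.08 and 0.496 to 20.9 and 23.04. STIP1 and CHORDC1, both co-chaperone genes, were lower in Pol II by 2.75 and 15.4 points, and DNAJC4 overlapped.

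Of 18 motility and angiogenesis genes, 10 had Pol II in all 4 lists, 6 were lower, 1 (PAK1) was higher and 2 (PDGFD among them) had lost the peak, and H3K9Ac was lower at 12 of 13. CTTN, the cortactin gene, went from 14.0 and 16.6 to 39.0 and 42.0 in Pol II. YAP1, the co-activator gene of the Hippo pathway, went from 8.80 and 8.66 to 33.7 and 44.5, with H3K9Ac from 0.443 and 0.0130 to 2.73 and 2.80. Its neighbour BIRC2 changed less, from 19.6 and 18.7 to 21.8 and 26.2.

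Around CCND1, the cyclin D1 gene, 6 of 7 genes with Pol II in all 4 lists were lower without overlap. LTO1, a gene of ribosome and iron-sulfur protein assembly, went from 11.02 and 14.8 to 36.4 and 56.7, and TPCN2, a lysosomal channel gene, from 11.3 and 10.3 to 29.4 and 51.0. MYEOV overlapped, at 20.8 and 13.6, then 13.1 and 51.0. CCND1 stood near the top in all 4 lists, at 1.37 and 1.26, then 1.77 and 2.005, a change of 0.574 points. Its H3K4me3 and H3K9Ac summits were missing from the window in parental replicate 2 and present in the other 3 lists of each mark. Its SAP30 summit was found in replicate 2 alone.

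At much of the rest of the arm no summit was found, and RNA was not read here. Pol II had a summit in none of the 4 lists at 390 of the 867 genes, H3K4me3 at 352 and H3K9Ac at 358. Largely or wholly without summits were the 9 genes of the matrix metalloproteinase cluster and the 13 of the MS4A family of membrane proteins. The same held for 10 T cell and apolipoprotein genes and 96 olfactory receptor genes. Of all these, 0 had SAP30 in both replicates and 0 had Pol II, H3K4me3 or H3K9Ac in all 4 lists. Of the remaining genes, Pol II was found in both parental lists and 1 SAP30-KO1 list at 36, in the opposite pattern at 5 and in other incomplete patterns at 18, beside the 15 lost and 1 gained. H3K4me3 had 3 and 3 genes of the first 2 patterns and H3K9Ac 7 and 10. The lists of genes used here were drawn up with earlier results of these data known, and their counts are descriptions.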

How the data were processed

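ChIP-seq of MDA-MB-231 cells gave 30 samples, of which 18 came with a peak list, 2 replicates for each target and line. The other 12 samples, input and total H3, were not analysed here. Each list was called on 1 library, and its values, deposited by the authors, are the −log10 of the q-value at 1 bp summits, with a lowest value of 1.30. The submitters' processing notes name hg19, FastQC 0.11.2, Bowtie2 2.3.3.1, Picard and MACS2 2.1.0, without options. Which control each list was called against is not given in the sources used here. Depth is unknown, so scores were ranked within a list, tied scores sharing the mean rank.

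Groups followed the labels. Start sites were those of GENCODE release 44 on GRCh37, and promoter sequence was read from that genome. Scripts used Python 3.11.15, pandas 2.3.3, NumPy 2.4.6, SciPy 1.17.1 and matplotlib 3.10.9 and were tested on simulated data.

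The arm, its members and the gene lists were chosen with earlier results of these data known, so no test was run. Named genes were PDGFD, RDX and KMT2A, the largest changes without overlap in each direction for each target and over all 3, the best-ranked lost and gained peaks, the genes next to the centromere, and up to 4 members of each list with the largest Pol II changes. Genes without SAP30 were named outside this rule, after their values were seen. Alternatives changed the window, the ranking, the shared windows and the libraries used.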

Additional observations from a re-analysis of the deposited data

How the results depend on the processing

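The excess of the arm's median change over all genes was 8.45, 6.41 and 4.78 points for Pol II, H3K4me3 and H3K9Ac in turn. Ranking among genes in all 4 lists gave 13.2, 9.996 and 14.0, and the better-ranked genes alone 6.77, 7.36 and 4.17. Genes with unshared windows gave 5.93 for H3K4me3 and 5.03 for H3K9Ac, and lists cut to equal length 6.98 for H3K4me3. Away from start sites the excess was 2.57 for H3K4me3 and 5.24 for H3K9Ac, with SAP30 2.65 and 5.06, and without SAP30 4.86 for Pol II, −2.66 for H3K4me3, where the direction turned, and 5.47 for H3K9Ac. Leaving out 1 library gave 5.90 to 6.72 for H3K4me3 and 4.42 to 5.11 for H3K9Ac. The Pol II count lower without overlap was 143 for unshared windows, of fewer genes.

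The log2 relative score of Pol II was −0.47 for unshared windows. With 1 library left out it ran from −0.46 to −0.39 for Pol II and from −0.47 to −0.39 for H3K9Ac. Lost peaks numbered 1, 0 and 0 when both parental ranks had to be better than 50, and without 1 library 19 (without parental replicate 1) to 42 (without SAP30-KO1 replicate 1) for Pol II and 8 to 12 for H3K9Ac.

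The median at SAP30 genes minus that at genes without SAP30 was 2.62, −9.01 and 4.72 points for the same targets, over 2, 5 and 2 genes without SAP30, and did not hold its sign. It was 0.328 for Pol II with a window of 500 bp, −1.60 with 3000 bp and 0.639 to 4.86 with 1 library left out. For H3K4me3 it was 10.4 when ranked among genes in all 4 lists and −12.1 to 2.61 with 1 library left out, the last without SAP30-KO1 replicate 1. For H3K9Ac it was −10.9 with 3000 bp and −5.22 to 1.75 with 1 library left out, being −5.22 and −1.79 without parental replicates 1 and 2. The cause was not tested.

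Same-numbered libraries of the lines showed no shared deviation, which cannot settle whether they were prepared together. Deviations of same-numbered libraries from their group means correlated across all genes at 0.007, −0.019 and −0.014 for Pol II, H3K4me3 and H3K9Ac, with 2 pairs each. The replicate block left the medians as they were by construction, and 248, 330 and 351 genes were lower in both pairs, beside 219, 283 and 303 without overlap. The handling of ties and the split of distant regions by SAP30 were added after seeing the data. With 2 replicates and unknown depth, small differences in rank could not be resolved.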
